A study of Mus musculus with 33 samples.

Results

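The 8 cytotoxic effector genes described here are Gzma, Gzmb, Gzmk, Gzmm, Prf1, Nkg7, Ifng and Fasl, a list chosen by name and all found by symbol among the 32285 mouse genes in the files. They were followed across lymphocyte classes, tissues and biotin sorts in single-cell RNA-seq data from SAMENT, a niche labelling method in which biotin is left on the cells that neighbour injected tumour cells. Lung, liver, brain and bone (femurs and tibias) were sampled after injection into the heart, each with 4 biotin positive (tagged) and 4 biotin negative (untagged) samples. In a second experiment, bone was taken after an injection that the labels call only IIA, and 12 hashtagged samples, 6 tagged and 6 untagged, were pooled into 1 matrix. All groups, the untagged included, had received an injection and the labelling substrate overnight, so the untagged cells come from injected animals too and are not healthy controls. The labels gave no strain, sex, age or tumour line, and did not say whether samples with the same replicate number came from the same animal, so p-values measure only the spread between these samples.

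Kept cells numbered 55366 in the 32 intracardiac samples (94 to 3505 per sample, 482617 to 44834665 UMIs) and 22362 in the 12 IIA samples (249 to 3480 cells, 2149784 to 27903856 UMIs). UMIs are unique molecular identifiers, so that each counts 1 captured transcript. Intracardiac samples with the same replicate number shared 0 barcodes, and pairs with different numbers shared 341 in all. Libraries that stood apart from their group for several members included bone of replicate 1 and IIA bone of replicate 2 in both sorts, tagged brain of replicate 3 and, by its NK cells, untagged lung of replicate 1. Where a comparison turned on one of them, the value without it is given. Levels are given as CPM, the UMIs of a gene in the summed cells scaled to a fixed total.

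Killer lymphocytes carry granules that hold perforin and granzymes and release them onto a target cell. Perforin, encoded by Prf1, forms pores through which granzymes enter, and the granzymes are serine proteases that then cut proteins of the target. Nkg7 encodes a membrane protein of these granules that takes part in their release. Fasl encodes the ligand of the death receptor Fas, and Ifng encodes interferon gamma, a cytokine that activates macrophages and raises antigen presentation. Natural killer (NK) cells and CD8 T cells are the best known sources of all of these products.

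On the mouse build GRCm38.p6, which corresponds to the mm10 build of the submitters' processing notes, RefSeq places Gzma at chr13:113093824-113100981 and its neighbour Gzmk at chr13:113171630-113180965, both on the minus strand. Gzmb lies at chr14:56258836-56262334 on the minus strand and Fasl at chr1:161780691-161788495 on the minus strand. Prf1 (chr10:61297751-61304684), Gzmm (chr10:79689020-79695261) and Ifng (chr10:118441046-118445894) share a chromosome and the plus strand. Nkg7 is a short gene at chr7:43437138-43438246 on the plus strand.

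The 250 bases before the start are printed for the 4 members whose levels fell in tagged lung (Gzma, Gzmb, Nkg7 and Fasl), because these moved together. The sequences are RefSeq's on GRCm38.p6 and read 5′ to 3′ along the gene's strand. Capitals mark matches on either strand to the RUNX core TGTGGT (reverse complement ACCACA) and to the T-box motif AGGTGTGA (reverse complement TCACACCT), searched as spelled. No match of one overlapped a match of the other in these 4 windows.
Gzma (chr13:113100982-113101231, minus): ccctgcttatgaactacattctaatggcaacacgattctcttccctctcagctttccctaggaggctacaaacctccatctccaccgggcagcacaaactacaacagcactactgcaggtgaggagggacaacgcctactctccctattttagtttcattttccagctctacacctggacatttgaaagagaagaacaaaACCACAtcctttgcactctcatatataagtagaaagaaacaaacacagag
Gzmb (chr14:56262335-56262584, minus): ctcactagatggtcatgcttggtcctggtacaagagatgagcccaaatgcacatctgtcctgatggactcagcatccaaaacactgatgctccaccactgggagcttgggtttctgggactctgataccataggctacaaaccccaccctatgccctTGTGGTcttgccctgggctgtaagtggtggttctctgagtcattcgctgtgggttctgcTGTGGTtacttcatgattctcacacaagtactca
Nkg7 (chr7:43436888-43437137, plus): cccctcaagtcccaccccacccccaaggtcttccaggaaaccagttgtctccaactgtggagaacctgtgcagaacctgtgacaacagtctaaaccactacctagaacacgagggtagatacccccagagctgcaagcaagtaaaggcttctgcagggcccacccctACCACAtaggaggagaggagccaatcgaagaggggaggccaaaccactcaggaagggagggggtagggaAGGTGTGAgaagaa
Fasl (chr1:161788496-161788745, minus): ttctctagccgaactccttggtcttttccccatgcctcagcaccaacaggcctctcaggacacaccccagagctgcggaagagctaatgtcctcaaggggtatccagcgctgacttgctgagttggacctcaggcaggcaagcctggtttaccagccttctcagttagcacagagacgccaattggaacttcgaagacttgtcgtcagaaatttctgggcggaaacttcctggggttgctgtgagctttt
The RUNX core was found in 4614 of 32851 promoter windows of this length (14.05%), and the T-box motif in 368 (1.12%). Among the members, Gzmb held 2 RUNX cores, starting 93 and 34 bases before the start. Gzma held 1 at 50 bases, Nkg7 1 at 83 bases, and Gzmm 1 at 247 bases in the first of its 2 listed promoters. Prf1 held 1 as well, in a window that RefSeq sets by a start inside the gene span given above. Nkg7 was the only member with the T-box motif, 14 bases before its start. No match was found for Fasl, Gzmk and Ifng, which says only that these letters are not in those windows.

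The first question was which cells carried the transcripts. Cells were clustered without the 8 genes, so that the members did not choose the classes, and class names stand for resemblance to marker genes only. Of 6373 named T and NK cells, the intracardiac NK class held 1269 cells, of which 66.4% had a UMI of Ncr1, 85.1% of Klrb1c and 3.63% of Cd3e. The CD8 T class held 1118 cells, with Cd3e in 80.4%, Cd8b1 in 64.2%, Cd4 in 5.28% and Ncr1 in none. The other lymphoid classes were CD4 T (1696 cells), Klrb1c+ T (410), gamma delta T (197, with Trdc in 95.9%), other T (866) and ILC2 (283 type 2 innate lymphoid cells). Levels by class are descriptions over untagged intracardiac samples with at least 20 cells of the class, without tests, since the classes came from the same cells.

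NK cells had the highest median of Gzma, Gzmb, Prf1, Nkg7, Ifng and Fasl among the lymphoid classes, whereas Gzmk was a CD8 T transcript and Gzmm was low throughout. In 11 NK samples, Gzma ran from 3511 to 18510 CPM with a median of 11540, so that it was above 1% of all UMIs in the median sample. The highest Gzma level in any CD8 T sample was 674 CPM, and the median there was 42.2. Gzmb ran from 390.7 to 1813 CPM in NK samples (median 1083) against 12.04 to 160 in the 10 CD8 T samples (median 66.1). Prf1 ran from 221.2 to 1397 CPM in NK samples (median 768) against 30.8 to 133.6 in CD8 T samples (median 83.9). For these 3 genes the NK and CD8 T samples did not overlap.

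Nkg7, Ifng and Fasl were shared more widely, and their NK and CD8 T ranges overlapped. Nkg7 ran from 2061 to 4242 CPM in NK samples (median 3187), from 454.7 to 2136 in CD8 T samples (median 1738) and from 600 to 1410 in Klrb1c+ T samples (median 1009). CD4 T samples had a median of 100.8 CPM of Nkg7, above the 11.2 CPM of B cells. Ifng had medians of 262.4 CPM in NK, 88.1 in CD8 T and 55.1 in CD4 T samples, with ranges of 52.1 to 638.7, 5.16 to 333.0 and 0 to 162.0. Fasl had medians of 156.3, 49.9 and 20.3 CPM in the same order. The Ifng ranges of neighbouring classes in this order overlapped.

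Gzmk, a granzyme with trypsin-like activity, had a median of 388.5 CPM in CD8 T samples (10.3 to 537.3) against 2.60 in NK samples (0 to 22.4). Gzmm, a granzyme known from NK cells, was at most 105 CPM in any of these intracardiac classes, with medians of 26.95 CPM in Klrb1c+ T, 11.2 in CD8 T and 4.78 in NK samples, and these ranges all reached 0. Gamma delta T cells had no UMI of Fasl, Ifng or Gzmm in 3 samples, and their Gzmb ran from 0 to 193.6 CPM. Among ILC2 cells Nkg7 had a median of 22.2 CPM, within the range of B cells (0 to 29.96), and the median of Gzma, Gzmb, Prf1 and Ifng was 0.

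**Figure D1:**
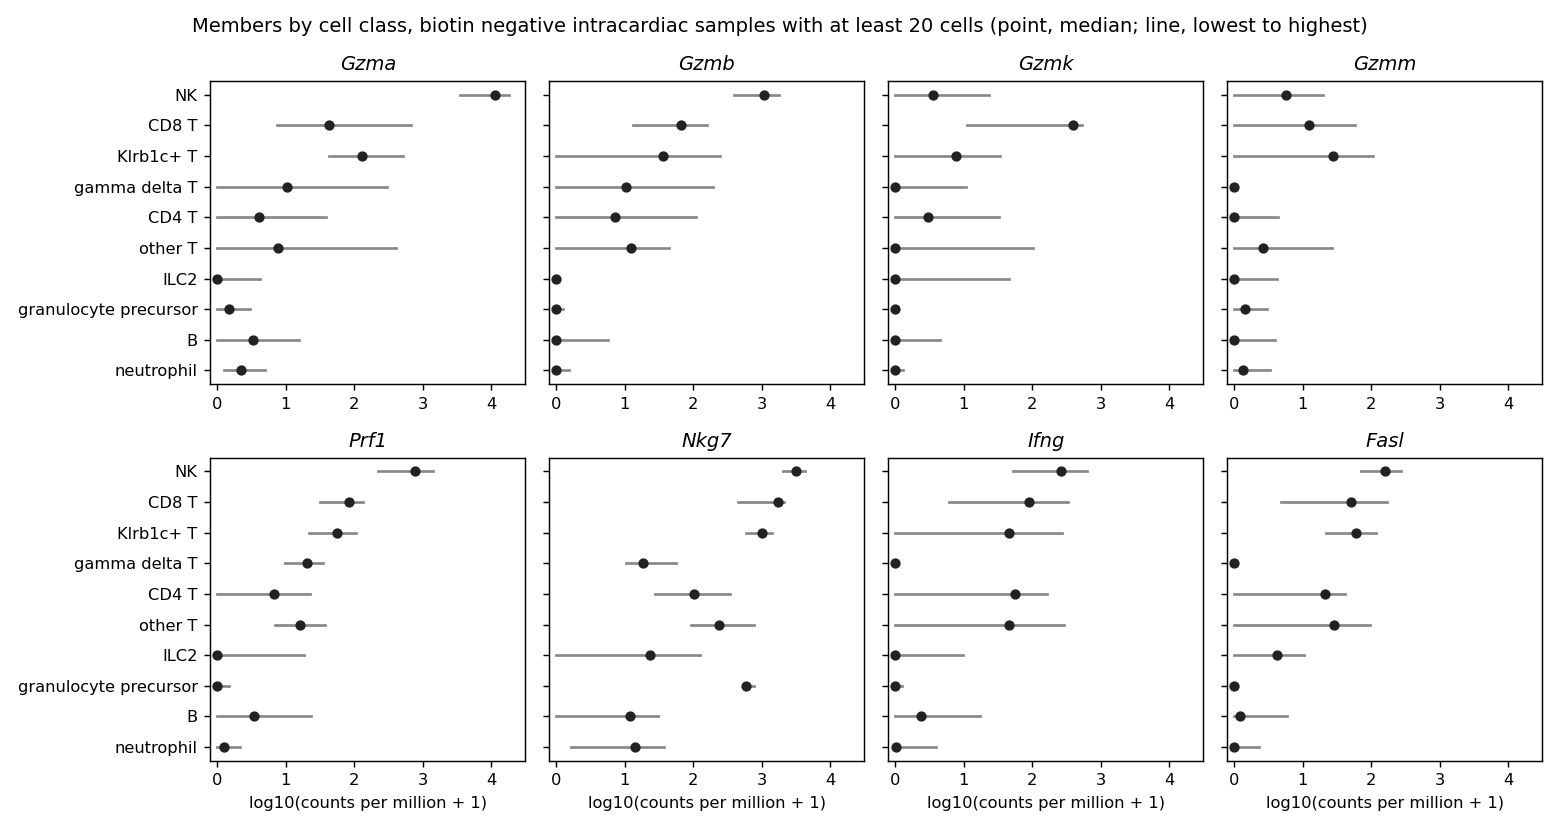
Levels of the 8 members by cell class in untagged intracardiac samples with at least 20 cells of the class, as log10(CPM + 1) on the horizontal axes; points are medians over samples and lines run from the lowest to the highest sample. NK cells stand clear of CD8 T cells for Gzma, Gzmb and Prf1, CD8 T cells lead for Gzmk, and granulocyte precursors show Nkg7 without the other members.

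Shares of cells with a UMI depend on depth, so each cell was also thinned to 1000 UMIs. In the median NK sample, 90.9% of cells had a Gzma UMI, and 89.4% after thinning. For Gzmb the shares were 73.3% and 50.4%, for Prf1 72.7% and 49.1%, for Ifng 40.7% and 16.7%, and for Fasl 36.4% and 14.0%. In the median CD8 T sample Gzmk was seen in 46.2% of cells and in 29.5% after thinning. B cells, which should lack these genes, had a Gzma UMI in 0.592% of cells and an Nkg7 UMI in 1.96% at a median of 2199 UMIs per cell, against 2679 in NK cells. The NK shares of both genes lay far above that background.

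Outside lymphocytes, Nkg7 was also a transcript of granulocyte precursors, the cells that give rise to neutrophils, here led by Elane, Ctsg and Mpo. In 5 untagged intracardiac samples these cells had 545.7 to 761.4 CPM of Nkg7 (median 590.2) at a median depth of 34530 UMIs, while no other member exceeded 2.05 CPM there. Neutrophils had 0.631 to 36.7 CPM of Nkg7. In untagged IIA bone, basophil or mast cells had 225 to 599 CPM of Nkg7 and 30.3 to 143 CPM of Gzmb, and stem or progenitor cells had 135 to 210 CPM of Nkg7. In that pooled matrix B cells had 51.9 to 102 CPM and neutrophils 48.6 to 63.8 CPM of Nkg7, and the source of these UMIs was not tested.

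NK cells of untagged IIA bone (197 cells in 6 samples) had 853 to 4321 CPM of Gzma, 13.3 to 847 of Gzmb, 86.3 to 565 of Prf1 and 1372 to 1982 of Nkg7. Their Fasl, 59.6 to 227 CPM, covered much of the range of the intracardiac NK samples. These libraries were made by 5′ sequencing and the intracardiac ones by 3′ sequencing, so levels of the 2 experiments are set side by side without a comparison.

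A lymphoid sub-cluster of 100 intracardiac cells with proliferation genes was rich in granzyme transcripts. It was led by Hist1h1b, Pclaf and Gzmc, had Mki67, a proliferation marker, in 75% of cells, and stayed unnamed because Ncr1 (47%) and Cd3e (46%) were both frequent. Its levels were 2874 CPM of Gzma, 698.5 of Gzmb, 451 of Prf1, 1035 of Nkg7 and 1367 of Gzmc, a further granzyme. It held 327 of the 470 Gzmb UMIs of tagged bone (69.6%, in 12 cells), 180 of 225 in tagged liver (80.0%, in 5 cells) and 152 of 384 in tagged lung (39.6%, in 10 cells). In untagged bone, liver and lung its part of the Gzmb UMIs was 13.4%, 8.45% and 5.69%, in 13, 21 and 30 cells. For Gzma the tagged parts were 48.0%, 70.2% and 19.1%, against 15.03%, 7.88% and 2.26% untagged. Tagged brain held 1 such cell, without a UMI of Gzma, Gzmb or Prf1. These are sums over the samples of a group, were not split by sample and were not tested. Replicate 1 dominated the tagged sums, with 415 of the 470 Gzmb UMIs of tagged bone, 195 of the 225 of tagged liver and 290 of the 384 of tagged lung, so the tagged parts largely describe that replicate.

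The genes whose levels were most like each member were taken from 169 class by sample sums of untagged intracardiac cells, by Pearson correlation of log2(CPM + 1) over 19 classes and 16 samples. The sums share libraries and depth, so the values are descriptions. Gzma was most like the NK receptor gene Klra4 (0.876), Gzmb (0.874) and the NK receptor gene Klra8 (0.865). Gzmb was most like Gzma, Klrc2 (0.846) and Klrc1 (0.841), both genes of NK receptors of the NKG2 family. Prf1 was most like Samd3 (0.862), Gzma (0.855) and Eomes (0.850), which encodes a T-box transcription factor. Gzmk was less closely matched, by Eomes (0.684), Sh2d1a (0.652), which encodes an adaptor of SLAM receptors, and Tox (0.651). Gzmm was matched by Samd3 (0.667), Crtam (0.655) and Cd160 (0.631). Nkg7 was most like Fasl (0.830), Sh2d1a (0.805) and Il2rb (0.799), and Ifng most like Fasl (0.887), the chemokine gene Xcl1 (0.825) and Sh2d1a (0.823). Fasl was most like Sh2d1a (0.889), Ifng and Gm2682 (0.883).

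The next question was whether tagged and untagged cells of a tissue differed in the members, tested on the UMIs of all kept cells summed per sample with edgeR's quasi-likelihood test and Benjamini-Hochberg adjustment over all genes tested. In such sums, fewer cells of a type and less RNA per cell cannot be told apart. Differences are tagged minus untagged, on the log2 scale with their standard error.

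In lung, Gzma, Gzmb, Fasl and Nkg7 were lower in the tagged sort. Untagged lung had 1340, 50.04, 249.6 and 300.9 CPM of Gzma in replicates 1 to 4, and tagged lung had 58.8, 13.4, 29.2 and 27.7. The highest tagged value was just above the lowest untagged one, that of replicate 2. The difference was −4.09 ± 0.90 (adjusted p = 0.017), with the tagged sample lower in 4 of 4 replicate numbers. Gzmb was at 123, 5.69, 34.5 and 40.7 CPM untagged against 11.9, 1.89, 5.00 and 3.40 tagged, with an overlap at untagged replicate 2, and fell by 3.36 ± 0.85 (adjusted p = 0.027). Fasl was at 33.5, 1.36, 9.18 and 9.43 CPM untagged against 1.89, 0.210, 1.91 and 2.04 tagged, and fell by 3.41 ± 0.94 (adjusted p = 0.036). Nkg7 was at 386, 22.6, 178 and 176 CPM untagged against 24.5, 4.16, 25.6 and 49.9 tagged, and fell by 3.03 ± 0.87 (adjusted p = 0.041). Untagged replicate 2 was the low sample each time and overlapped the tagged samples.

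The other lung members pointed the same way without passing the threshold. Prf1 was at 139, 4.42, 28.6 and 28.9 CPM untagged and 7.75, 1.01, 1.47 and 16.1 tagged (−3.18 ± 1.10, adjusted p = 0.075). Ifng differed by −3.39 ± 1.18 (adjusted p = 0.076), Gzmm by −1.47 ± 0.50 (0.069) and Gzmk by −2.50 ± 1.48 (0.26). For Gzmk the replicates differed more than the sorts, with 3.72, 0.085, 29.8 and 19.3 CPM untagged and 0.287, 0.0421, 4.56 and 6.81 tagged. In this comparison 2254 of 12331 genes were called, 18.3% of those tested, of which 838 were lower in the tagged sort (6.8%), beside 4 of the 8 members. The median difference was −3.27 over the members and −0.04 over all genes tested. With the replicate number, which goes with the list of CellPlex tags, as a block in the fit, Prf1 (adjusted p = 0.019), Ifng (0.027) and Gzmk (0.0089) were called as well, although the numbers did not pair the lung samples throughout.

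Lymphocyte numbers moved with these values. NK cells made up 0.754% to 14.6% of kept cells in untagged lung and 0.126% to 0.390% in tagged lung, and T cells 6.39% to 28.2% against 0.295% to 6.64%. NK cells held 91.2% of the Gzma UMIs of untagged lung, 81.4% of Prf1, 73.4% of Gzmb, 62.2% of Ifng and 58.4% of Fasl, while T cells held 85.2% of Gzmk. With the NK and T classes left out, an alternative added after seeing the data, no member was called, and Gzma differed by −1.79 ± 0.93 (adjusted p = 0.20). This fit takes most UMIs of most members away, so a loss of calls follows from the removal itself. It cannot tell fewer cells from less RNA per cell, and the same limit holds for such fits of other tissues below. The Gzma call held in all 8 fits that left out 1 sample (adjusted p 0.0076 to 0.047). Without untagged replicate 1, the lung with the most NK cells, Gzma differed by −2.82 ± 0.64 (adjusted p = 0.033) and the calls of Gzmb (0.071), Fasl (0.107) and Nkg7 (0.111) were lost. In all, the Gzmb call was lost in 5 of the 8 fits (kept without untagged replicate 2, untagged replicate 3 or tagged replicate 1), that of Fasl in 7 (kept without untagged replicate 2) and that of Nkg7 in 6 (kept without untagged replicate 2 or tagged replicate 4).

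**Figure D2:**
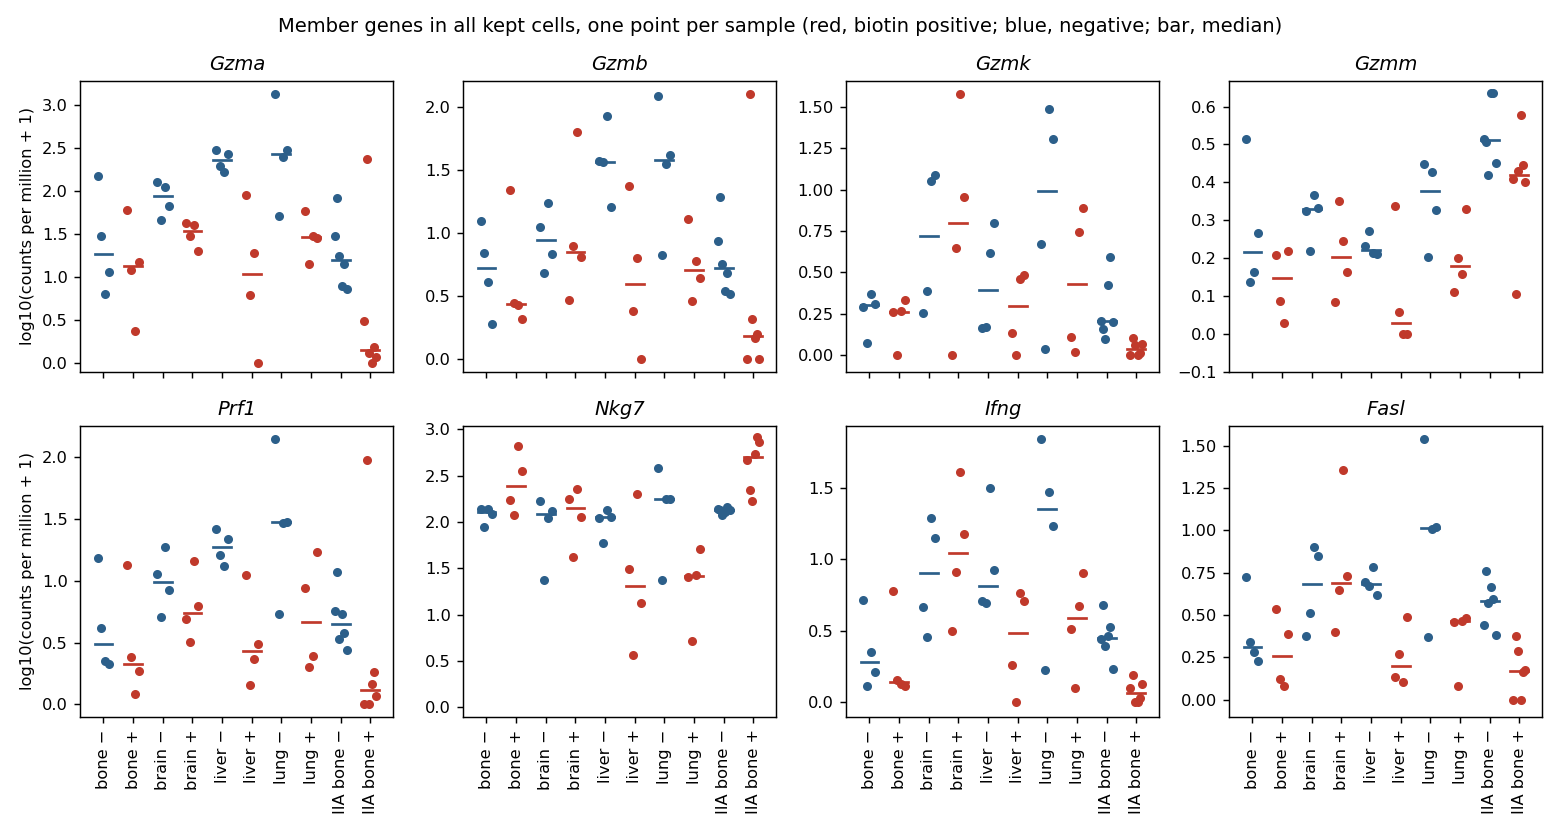
Levels of the members in all kept cells, 1 point per sample, as log10(CPM + 1) on the vertical axes of 8 panels that each have their own scale; red points are biotin positive and blue points biotin negative samples, and bars are medians. The tagged lung samples lie low for Gzma, Gzmb, Fasl and Nkg7, the tagged IIA bone samples lie high for Nkg7, and tagged IIA replicate 2 stands far above the other tagged IIA samples for Gzma, Gzmb and Prf1.

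The other genes of the pathway came from 7 lists with 66 genes, whose counts are to be read against the 6.8% of all tested genes that were lower in tagged lung and the 11.5% that were higher. Of 12 genes of activating and inhibitory NK receptors, 10 fell in tagged lung, with a median difference of −3.55 over the list, among them Klrb1c (−3.59, adjusted p = 0.015), Klrg1 (−3.64, 0.025) and Klra7 (−3.90, 0.025). Of 10 effector transcription factors 4 fell, including Tcf7 (−3.25, adjusted p = 0.0063), Tbx21, which encodes T-bet (−3.46, 0.030), and Runx3 (−1.54, 0.038). Of 7 tested cytokine receptor genes 4 fell, including Il21r (−2.36, adjusted p = 0.012) and Il2rb (−2.95, 0.018). Of 8 tested genes of granule cargo and maturation only Ctsw, a cathepsin gene of killer cells, fell (−2.91, adjusted p = 0.042), and of 8 genes of granule release none was called. Of the 7 effector cytokines and death ligands Lta, which encodes lymphotoxin alpha, fell (−3.22, adjusted p = 0.020). Of 9 genes of receptors and targets of the members 1 rose, Casp8 (0.75, adjusted p = 0.0080), and 2 fell, including Ifngr1, which encodes a chain of the interferon gamma receptor (−0.81, 0.032). The counts for granule cargo and for cytokines and death ligands, 1 gene each, lay near the share over all genes.

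In brain, Gzma was lower in the tagged sort and the other members were not called. Gzma was at 127, 44.8, 113 and 67.0 CPM in untagged replicates 1 to 4 and at 42.0, 28.9, 39.1 and 19.2 CPM in the tagged ones, so that the groups did not overlap. It fell by 1.69 ± 0.34 (adjusted p = 0.037) in a comparison that called 339 of 11064 genes, 3.06% of those tested, 319 as higher (2.88%) and 20 as lower (0.181%). The call was lost in 6 of 8 fits that left out 1 sample, with adjusted p up to 0.115, and held without untagged replicate 2 or tagged replicate 1. Prf1 was at 10.3, 4.08, 17.97 and 7.36 CPM untagged and 3.90, 2.18, 13.6 and 5.25 tagged (−1.04 ± 0.57, adjusted p = 0.33), lower in the tagged sample of each number. With the replicate number as a block, which pairs the samples here, Prf1 fell by 1.08 ± 0.24 (adjusted p = 0.049), Gzma kept its call (0.013) and 762 genes were called in all. Gzmb, Gzmk, Ifng and Fasl were highest in tagged replicate 3, at 62.5, 36.9, 39.9 and 21.8 CPM, while the other tagged samples reached at most 6.85, 7.99, 13.9 and 4.34 CPM. T cells made up 27.1% and NK cells 3.55% of kept cells in that sample, against 2.37% to 4.48% T cells in the other tagged brain samples. Without it the differences of the 4 genes were −1.20, −1.04, −0.59 and −0.79, in place of 0.72, 0.49, 0.36 and 0.39 with all samples, and none was called in either fit. Gzmm was too low to be tested. Of the pathway lists only Il21r was called, higher in the tagged sort (1.47, adjusted p = 0.045).

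With the NK and T classes left out the brain difference was −0.77 ± 1.09 (adjusted p = 0.71). In tagged brain replicates 2 and 3, the NK class itself had 1261 and 1077 CPM of Gzma in 14 and 11 cells, against 8676 to 14110 CPM in the untagged brain samples. Of those tagged NK cells, 10 of 14 and 11 of 11 fell into an NK sub-cluster of low Gzma led by Xcl1, Cd7 and Itga1 (sub-cluster 12). Eomes was seen in 5.13% of the cells of this sub-cluster, against 37.6% to 69.7% in the other NK sub-clusters. The part of this make-up in the Gzma difference was not tested.

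In bone after intracardiac injection no gene passed the threshold among 12533 tested (0%, with 983 at an unadjusted p under 0.05 and 53 called by DESeq2). Nkg7 was the member nearest to it, at 137, 87.4, 138 and 120 CPM untagged and 171, 119, 662 and 352 CPM tagged, higher in the tagged sample of each number (1.30 ± 0.52, adjusted p = 0.61). Gzma was at 151, 29.3, 5.33 and 10.6 CPM untagged and 60.4, 11.2, 1.33 and 13.9 tagged (−1.12 ± 1.09, adjusted p = 0.74), with replicate 1 far above the others in both sorts. Without untagged replicate 1 the Gzma difference was 0.24 ± 1.03, and without tagged replicate 1 it was −2.31 ± 1.16, neither of them called. The replicate block, which pairs the samples here, called 12 genes and no member.

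In liver, 0 of 11854 genes were called (0%), with 1571 at an unadjusted p under 0.05 and 431 called by DESeq2. Fasl was at 3.93, 3.70, 5.07 and 3.13 CPM untagged and 0.353, 0.855, 0.269 and 2.07 tagged, without overlap (−3.00 ± 0.51, adjusted p = 0.10). Gzma was at 298, 196, 169 and 272 CPM untagged and 89.1, 5.13, 18.3 and 0 tagged, also without overlap (−3.22 ± 0.93, adjusted p = 0.22). DESeq2 called Fasl, Gzma, Prf1 and Gzmb as lower in tagged liver, with adjusted p of 0.00082, 0.0095, 0.042 and 0.045. NK cells made up 3.25% to 7.005% of kept cells in untagged liver and 0% to 0.538% in tagged liver, and T cells 5.86% to 7.40% against 0.290% to 2.02%, both without overlap. NK cells held 82.2% of the Gzma UMIs of untagged liver. With the NK and T classes left out, Gzma differed by −0.71 ± 1.25 (adjusted p = 0.83). The unnamed lymphoid sub-cluster with proliferation genes stayed in that fit. It held 70.15% of the Gzma UMIs of tagged liver and 7.88% of those of untagged liver. Nkg7 went against the others in tagged replicate 3, at 198 CPM beside 30.1, 2.71 and 12.4 CPM in the other tagged samples. Granulocyte precursors held 53.8% of the Nkg7 UMIs of tagged liver and 2% of those of untagged liver. Gzmm was not tested.

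Whether the difference between sorts varied among the 4 tissues was tested with the interaction of tissue and sort. It called 161 of 13963 genes (1.15%) and no member, with the smallest member value for Nkg7 (adjusted p = 0.22). Il21r, the gene of the interleukin 21 receptor, was the only one of the pathway lists called (adjusted p = 0.0074). With the replicate number as a block, Nkg7 was called (adjusted p = 0.029) and 690 genes in all. For the other members a difference between tissues was not shown, although lung and brain had calls and bone and liver had none.

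In IIA bone Nkg7 rose and Fasl fell in the tagged sort. Nkg7 was at 117, 127, 133, 133, 136 and 143 CPM in the untagged samples, in order of size, and at 167, 223, 468, 548, 720 and 827 CPM in the tagged ones, without overlap. The rise was 1.66 ± 0.33 (adjusted p = 0.0015), with the tagged sample higher in 6 of 6 replicate numbers. Fasl was at 1.42 to 4.77 CPM untagged and at 0 to 1.37 CPM tagged, also without overlap, and fell by 2.53 ± 0.52 (adjusted p = 0.0016). Both calls held in all 12 fits that left out 1 sample. Gzmm fell by 0.86 ± 0.33 (adjusted p = 0.046), from 1.62 to 3.32 CPM untagged to 0.274 to 2.79 CPM tagged, and lost its call in 8 of those fits (adjusted p up to 0.109). With the replicate number as a block, the Gzmm call was lost as well (adjusted p = 0.051). T cells made up 2.03% to 4.62% of untagged and 0.206% to 1.61% of tagged cells, without overlap. With the NK and T classes left out, Nkg7 kept its call (1.92 ± 0.38, adjusted p = 0.0012), Gzmm lost it (−0.43 ± 0.30, 0.24) and Fasl was too low to be tested. The background of calls was high, with 6335 of 12625 genes called (50.2%), 3412 as higher (27%) and 2923 as lower (23.2%). Ifng and Gzmk were too low to be tested.

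Gzma, Gzmb and Prf1 in IIA bone turned on 6 cells. Tagged replicate 2 had 238 CPM of Gzma, 126 of Gzmb and 94.2 of Prf1, while the other 5 tagged samples reached at most 2.08, 1.08 and 0.824 CPM. The untagged samples had 6.37 to 81.8 CPM of Gzma, 2.30 to 18.5 of Gzmb and 1.77 to 10.8 of Prf1. The NK class of tagged replicate 2 held 6 cells with a median of 30374 UMIs, and these held 867 of the 895 Gzma UMIs, 460 of the 485 Gzmb UMIs and 344 of the 369 Prf1 UMIs of all tagged IIA samples. Their levels were 4850, 2573 and 1924 CPM. With all samples, Gzma differed by 0.44 ± 1.44 (adjusted p = 0.82), Gzmb by 1.498 ± 1.39 (0.39) and Prf1 by 1.63 ± 1.37 (0.34). With the replicate number as a block, which did not pair all IIA samples, these 3 differences turned negative. Gzma was then at −3.30 and called (adjusted p = 0.034), Gzmb was at −1.83 and Prf1 at −1.66. Without tagged replicate 2 the 3 genes were lower in the tagged sort, by −5.66 ± 0.94 (adjusted p = 0.00044), −3.95 ± 0.80 (0.0015) and −3.63 ± 0.71 (0.0012). An IIA NK sub-cluster of 10 cells, led by the granzyme genes Gzmf, Gzmg, Gzmd, Gzmc and Gzme, had 2391 CPM of Gzmb, 1720 of Prf1 and 7481 of Gzmc, above the other IIA NK sub-clusters (Gzmb 45.6 to 457). Of its 10 cells, 6 were these same cells of tagged replicate 2.

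Granulocyte precursors were the main source of Nkg7 UMIs in the sum of the tagged IIA samples. These cells made up 6.2% to 15.7% of kept cells in untagged samples and 4.33% to 50.6% in tagged ones, and held 33.5% and 86.8% of the summed Nkg7 UMIs. Tagged replicate 5 gave 1082 of the 1586 tagged precursors, so the tagged sum largely describes that sample. The precursor share of kept cells was higher in the tagged sample of replicates 1, 4, 5 and 6, but lower in replicate 2 (6.20% untagged, 4.33% tagged) and replicate 3 (9.91% and 8.38%), where Nkg7 was also higher in the tagged sample. Within the precursor class Nkg7 was at 193 to 315 CPM in the 6 untagged samples and at 696 to 1095 CPM in the 6 tagged ones, without overlap. The class was made of 3 clusters in different proportions. Of the untagged precursors 84.2% lay in a cluster with 88.7 CPM of Nkg7, led by histone genes, Fcnb and Chil3, while 73.6% of the tagged ones lay in a cluster with 1094 CPM (791 CPM in its untagged cells), led by Prtn3, Elane and Mpo. Median depth in the class was 5997 to 7383 UMIs per cell untagged and 7924.5 to 17463.5 tagged. With the precursors left out, an alternative added after seeing the data, Nkg7 differed by 0.49 ± 0.20 (adjusted p = 0.051), and Gzmm by −0.38 ± 0.40 (0.46), while Fasl kept its call (−2.19 ± 0.44, 0.0016). The intracardiac precursor class held different cells, with 100% of it in a cluster led by Elane, Ctsg and Mpo. A cluster led by Camp and Fcnb was named neutrophil there, so the classes of the 2 experiments are not matched. In intracardiac bone, precursors made up 0.338% to 5.11% of untagged and 3.43% to 33.4% of tagged cells, and their Nkg7 was at 583 to 918 CPM untagged and 640 to 927 CPM tagged, which overlapped. With them left out the intracardiac bone difference of Nkg7 was 0.055 ± 0.44.

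**Figure D3:**
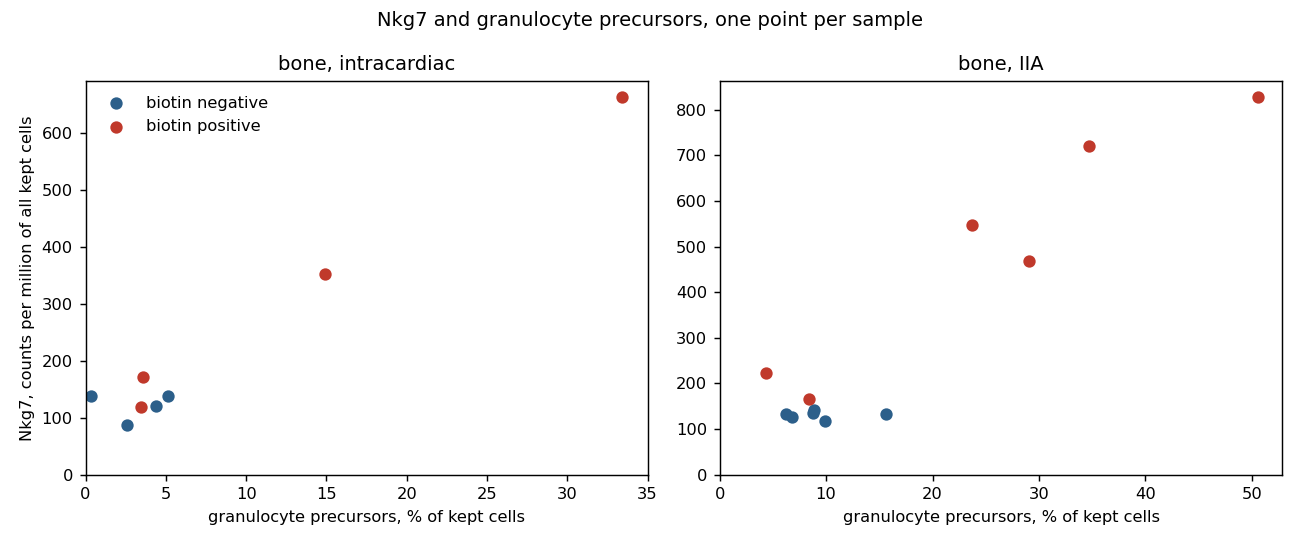
Nkg7 in all kept cells, as CPM on the vertical axes, against the share of granulocyte precursors among kept cells, as a percentage on the horizontal axes, with 1 point per sample of intracardiac bone (left) and IIA bone (right). Untagged IIA samples (blue) stay between 117 and 143 CPM, whereas tagged samples (red) reach 827 CPM in the IIA and 662 CPM in the intracardiac experiment.

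Pathway genes outside the members went both ways in IIA bone, where 50.2% of all tested genes were called. Counts of rises are to be read against the 27% of all tested genes that were higher, and counts of falls against the 23.2% that were lower. Of 10 tested NK receptor genes 6 fell and none rose, among them Klrk1, which encodes the activating receptor NKG2D (−2.24, adjusted p = 0.0014), Klrc2 (−2.71, 0.0025) and Cd244a (−0.89, 0.0080). Of 10 effector transcription factors 4 fell, including Tcf7 (−2.62), Tbx21 (−2.77) and Hopx (−1.94), and Runx3 (0.34) and Prdm1 (1.43) rose. Of 8 cytokine receptor genes Il18r1 (−2.71), Il18rap (−1.70) and Il12rb2 (−1.60) fell and 2 rose. Of 7 tested genes of granule cargo 3 rose, including Srgn, the proteoglycan that packs granule proteins (1.12), and Cst7, a cystatin gene (1.83), and Ctsw fell. Of 8 genes of granule release 4 fell, including Unc13d (−0.85), Stxbp2 (−0.76) and Stx11 (−1.03), which serve the docking and fusion of granules. Of 6 tested effector cytokine genes, the chemokine genes Xcl1 (−3.68) and Ccl5 (−2.99) fell. Of 9 receptors and targets of the members 2 rose, Ifngr1 (0.85) and Fadd (0.70), and 3 fell, including Ifngr2 (−0.91) and Fas (−1.19), the receptor of Fasl. Counted in either direction, most of these lists had called shares near the 50.2% of all genes. Granule and fusion genes such as Srgn, Cst7 and Stxbp2 are also expressed in myeloid cells, so their values cannot be assigned to lymphocytes in these sums. NK cells made up 0.635% to 2.08% of untagged and 0% to 1.24% of tagged IIA cells.

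To ask whether the T cells themselves differed between sorts, UMIs were summed over the T class alone in samples with at least 10 such cells. No gene was called in bone (2594 tested), brain (2954), liver (3693) or lung (5673), with 49, 92, 152 and 149 at an unadjusted p under 0.05 and 0 called by DESeq2 in each. The fits used 4 against 4 samples in bone and brain, 2 tagged samples (replicates 1 and 3) in liver and 3 (replicates 1, 3 and 4) in lung. Every tested member had an adjusted p that rounded to 1.00. Tagged lung sums held 49, 32 and 45 T cells, and liver sums 23 and 15. For brain the counts were 14, 16, 84 and 30, and for bone 98, 11, 11 and 22. From 4 members (bone) to 7 (lung) were tested, and the T class pooled CD8, CD4 and the other T classes. With so few tagged cells, the lack of calls does not show that T cells were alike in both sorts. With the replicate block, which pairs the T samples of bone, brain and lung, 10 genes were called in bone and 5 in lung, and no member. The test of whether the sort difference varied by tissue called 0 of 5246 genes (135 at an unadjusted p under 0.05, 0 by DESeq2).

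Nkg7 in T cells was at 715, 463, 1010 and 1325 CPM in untagged and 813, 242, 1209 and 1464 CPM in tagged bone, a difference of 0.09 ± 0.36. In lung it was at 192, 139, 618 and 794 CPM in the untagged T cells of replicates 1 to 4 and at 332, 887 and 977 CPM in the tagged T cells of replicates 1, 3 and 4 (0.69 ± 0.50). Gzma in lung T cells differed by 1.71 ± 0.85, from 110.7, 9.80, 30.6 and 20.0 CPM untagged to 4.96, 162 and 338 CPM tagged. The tagged UMIs came from 1, 1 and 2 cells, so few cells carry it. IIA bone held 25 tagged T cells, fewer than 10 in each sample, and could not be fitted.

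NK cells were then compared among tissues in the untagged sort, where 3 bone samples and 4 samples of each other tissue had at least 10 cells. Gzmb differed among tissues (adjusted p = 0.037) in a test that called 22 of 3242 genes (0.679%), and no other member was called. Bone had the low values, at 426, 391 and 421 CPM in replicates 1, 2 and 4, against 730, 522, 1535 and 666 for brain, 1337, 1593, 1809 and 630 for liver, and 1083, 1099, 1322 and 1813 for lung. The bone values lay below those of every other tissue, while brain, liver and lung overlapped one another. The call was lost in 10 of 15 fits that left out 1 sample (adjusted p 0.0098 to 0.137), and held without brain replicate 1 or 3, liver replicate 3 or 4, or lung replicate 2. It was also lost when the members were kept in the clustering (adjusted p = 0.053). With the replicate number as a block, Gzmb kept its call (0.0049), Prf1 was called (0.040) and 57 genes were called in all. The samples drew on different NK sub-clusters, which went with replicate number as well as tissue. Sub-cluster 14 (614.8 CPM of Gzmb) held 59 of 88, 1 of 26 and 9 of 13 bone NK cells of replicates 1, 2 and 4. It also held 43 of 50 in brain replicate 1, and 102 of 135 and 37 of 53 in liver replicates 1 and 4. Sub-cluster 15 (1397 CPM) held 154 of 404, 41 of 54 and 42 of 65 lung NK cells of replicates 1, 3 and 4. It also held 10 of 15 and 26 of 57 in brain replicates 3 and 4. Sub-cluster 8 (985.7 CPM) held 240 of 404 in lung replicate 1. Sub-cluster 25 (608.9 CPM) held 24 of 26, 10 of 14, 33 of 81 and 16 of 19 in replicate 2 of bone, brain, liver and lung. The part of this in the Gzmb difference was not tested. Of the pathway lists, Serpinb9, which encodes an inhibitor of granzyme B (adjusted p = 0.034), and Tnfsf10, the gene of the death ligand TRAIL (0.022), were also called among tissues.

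Bone alone against the mean of the other tissues gave no call among the 3242 genes (0%, with 171 at an unadjusted p under 0.05 and 1 called by DESeq2). Gzmb differed by −1.44 ± 0.32 (adjusted p = 0.18), and it was the gene that DESeq2 called (−1.44 ± 0.32, adjusted p = 0.018). Ifng differed by −1.38 ± 0.52, Prf1 by −0.89 ± 0.33 and Gzma by −0.70 ± 0.28 (adjusted p = 0.78 for each). Gzma was at 7061, 4845 and 8615 CPM in bone NK cells, against 8676 to 14110 in brain, 3511 to 12660 in liver and 9290 to 18510 in lung. Prf1 was at 562, 339 and 481 CPM in bone, 686 to 1770 in brain, 221 to 890 in liver and 931 to 1397 in lung. Nkg7 differed least, by −0.21 ± 0.20.

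Liver replicate 3 had the lowest NK levels of Gzma (3511 CPM) and Prf1 (221 CPM) among these samples together with the highest liver levels of Gzmb (1809 CPM) and Ifng (577.5 CPM). Of its 109 NK cells, 106 lay in sub-cluster 12, which held 31 of 135, 31 of 81 and 5 of 53 NK cells of the other untagged livers. This sub-cluster of 234 cells was led by Xcl1, Cd7 and Itga1, with Itga1 in 58.6% of cells, Cxcr6 in 53.0% and the T-box gene Eomes in 5.13%. Its levels were 3639 CPM of Gzma, 1631 of Gzmb, 193 of Prf1, 1762 of Nkg7 and 344 of Gzmc. The other 4 NK sub-clusters had 8635 to 18430 CPM of Gzma, 609 to 1397 of Gzmb, 685 to 1474 of Prf1 and Eomes in 37.6% to 69.7% of cells. Without liver replicate 3 the adjusted p of Gzmb among tissues was 0.039.

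**Figure D4:**
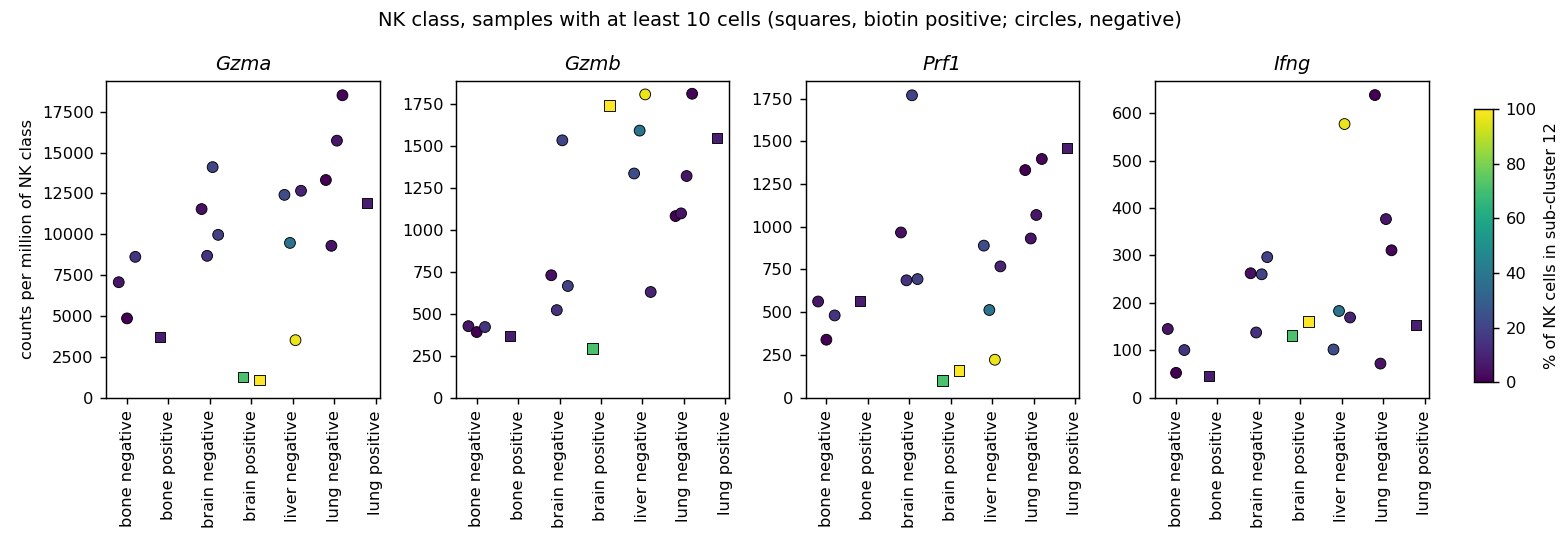
Gzma, Gzmb, Prf1 and Ifng in the NK class of intracardiac samples with at least 10 NK cells, as CPM on the vertical axes that start at 0; circles are untagged and squares tagged samples, and the colour gives the percentage of the sample's NK cells in sub-cluster 12. Bone lies low for Gzmb, and the samples with nearly all NK cells in sub-cluster 12 lie low for Gzma and Prf1.

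CD8 T cells were compared in the same way, with 3 untagged samples (replicates 1, 3 and 4) for each tissue. In the fit without the replicate number, no gene was called among tissues or for bone against the rest among 3280 tested (0%, with 98 and 83 at an unadjusted p under 0.05 and 1 and 0 called by DESeq2). The member with the largest difference was Ifng, at 5.16, 38.1 and 18.8 CPM in bone CD8 T cells, against 32.9, 212 and 333 for brain, 11.6, 36.7 and 138 for liver, and 21.5, 232 and 158 for lung, or −3.35 ± 1.12 for bone (adjusted p = 0.9995). Gzmk differed by 0.33 ± 0.99 and Nkg7 by −0.07 ± 0.39. For Gzmk and Nkg7 the replicate numbers differed more than the tissues. With the replicate number as a block, 58 genes were called among tissues, with Ifng (adjusted p = 0.0010), Gzma (0.0062) and Gzmb (0.013) among them, and 5 for bone, with Ifng (−2.36 ± 0.50, 0.037). The call thus depends on whether the replicate number is in the fit.

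In CD8 T cells, Gzmk was low in replicate 1 of every tissue and high in replicates 3 and 4. It was at 10.3, 39.5, 26.9 and 21.5 CPM in replicate 1 of bone, brain, liver and lung, at 476, 345, 477 and 537 CPM in replicate 3 and at 806, 508, 432 and 497 CPM in replicate 4. Nkg7 followed with 765, 941, 728 and 455 CPM in replicate 1 against 1726 to 2311 CPM in replicates 3 and 4. Replicates 3 and 4 shared a list of CellPlex tags, and replicates 1 and 2 each had another. Replicate 2 had only 2 to 8 CD8 T cells per tissue by cluster. Taking instead all T-class cells with a Cd8a or Cd8b1 UMI and no Cd4 UMI, a gate added after seeing the data, Gzmk was at 0 to 137 CPM in the 8 untagged samples of replicates 1 and 2 and at 192 to 425 CPM in the 8 of replicates 3 and 4, without overlap. Nkg7 was at 329 to 947 and 1398 to 2141 CPM in the same groups. This split by replicate number was seen in the data and is a description without a test.

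**Figure D5:**
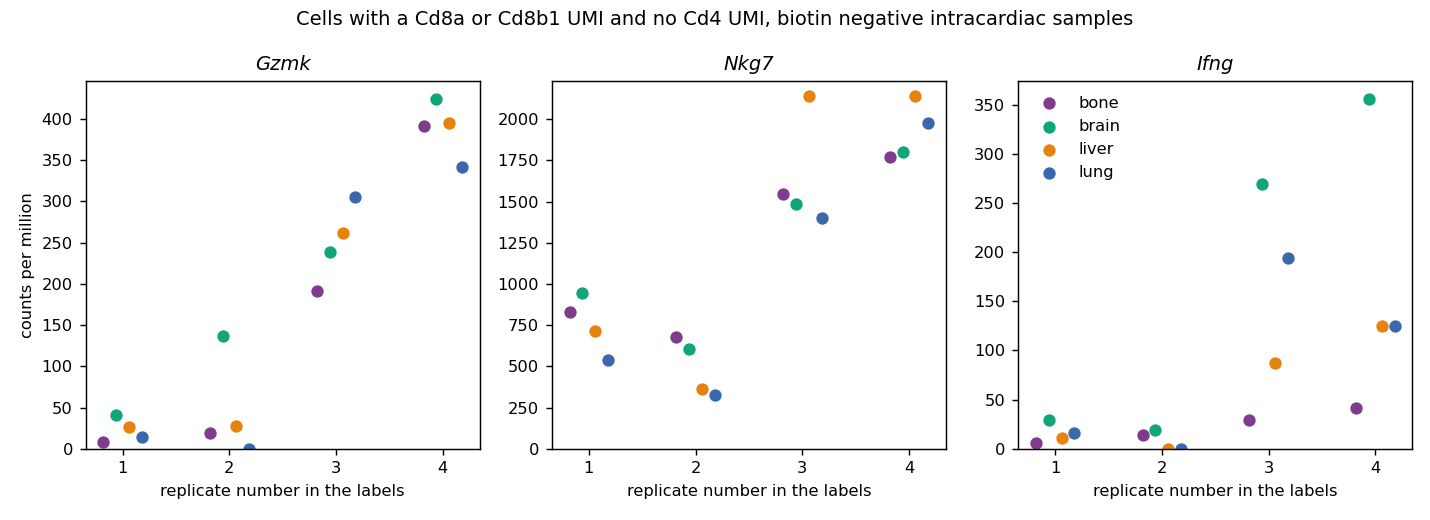
Gzmk, Nkg7 and Ifng in T-class cells with a Cd8a or Cd8b1 UMI and no Cd4 UMI, as CPM on the vertical axes that start at 0, against the replicate number in the labels, with 1 point per untagged intracardiac sample coloured by tissue. Gzmk and Nkg7 are higher in replicates 3 and 4 than in replicates 1 and 2 in all 4 tissues.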

How the data were processed

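Single cells of 44 tagged and untagged samples were sequenced. Per the labels' protocols, intracardiac libraries were CellPlex multiplexed with 3′ sequencing and IIA libraries TotalSeqC multiplexed with 5′ sequencing. The deposited UMI counts came from Cell Ranger 6.1.2 (intracardiac) and 7.1.0 (IIA), per the file headers, on mm10 per the submitters' processing notes. Cells had at least 500 UMIs, 200 genes and at most 15% mitochondrial UMIs. IIA cells took their sample from a hashtag with at least 10 counts and 3 times the next (22685 of 26666 barcodes). Cells were clustered with scanpy 1.11.5 without the 8 members, and thresholds for naming clusters were set after seeing their marker levels. No cell was removed as a doublet; leaving out the top 5% of Scrublet scores was an alternative.

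UMIs were summed per sample, with at least 10 cells for classes, and tested with edgeR 4.0.16 (TMM, filterByExpr, quasi-likelihood), with Benjamini-Hochberg adjustment over all genes tested at 0.05. DESeq2 1.42.0, no filter, a replicate block, a minimum of 20 cells, members kept in clustering and leaving out samples were alternatives. On simulated lung data (12331 genes), 88.8% of changes of 2 log2 units and 100% of changes of 4 were recovered, with 10 false calls. The simulation gave all genes the same spread between samples. These shares therefore do not carry over to the members, whose levels varied widely within a sort. The members, lists and named genes (the members, and list genes with the smallest adjusted p) were chosen with earlier results of these data known. Not every list gene is reported here. Samples with the same replicate number deviated together, which was taken as pairing where there were 3 or more pairs and every correlation exceeded 0.1. This held for all kept cells of bone (0.448 to 0.738), brain (0.213 to 0.629) and liver (0.256 to 0.501) and for T cells of bone (0.151 to 0.307), brain (0.198 to 0.325) and lung (0.208 to 0.414). T cells of liver had only 2 pairs (0.151 and 0.174), too few for this rule.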

Additional observations from a re-analysis of the deposited data

Results flagged for a closer look

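Of 152 groups of member values tested for a sample far from the rest of its group, 26 held one, and chance gives about 1 in 20. In all kept cells, IIA bone replicate 2 was the high sample in both sorts, with 81.8 CPM of Gzma, 18.5 of Gzmb and 10.75 of Prf1 untagged and 237.9, 126 and 94.2 CPM tagged. Its untagged NK cells were also high for Gzma, at 4321 CPM. Intracardiac bone replicate 1 was high in untagged cells for Gzma (151 CPM), Prf1 (14.35) and Fasl (4.31), and in tagged cells for Gzmb (21.1), Prf1 (12.3) and Ifng (4.99).

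Tagged brain replicate 3 was high for Gzmb (62.5 CPM) and Fasl (21.8). In liver, untagged replicate 3 was high for Ifng in all kept cells (30.5 CPM), and its NK cells were apart for Ifng (577.5 CPM) and Gzmm (6.14). Tagged liver replicate 1 was high for Prf1 (10.2 CPM) and Gzmm (1.18), and tagged replicate 3 for Nkg7 (198). Tagged lung replicate 2 was low for Fasl (0.210 CPM). Among T cells, Gzma was high in untagged brain replicate 4 (63.6 CPM) and untagged liver replicate 4 (328.9). Among NK cells, Gzmk was high in untagged lung replicate 1 (11.1 CPM) and Gzmm in untagged IIA replicate 5 (129).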

How the results depend on the processing

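Counts of genes called moved by more than 1.5 times as follows. DESeq2 called 53 in bone, 1225 in brain, 431 in liver, 536 for sort by tissue, 1 for bone NK cells and 1 for CD8 T cells among tissues. Without the filter on low counts there were 517 in brain, 5, 8, 1 and 4 in T cells of bone, brain, liver and lung, 9 for T cells by tissue, 183 and 33 for NK cells among tissues and for bone, and 52 and 5 for CD8 T cells. With the replicate block there were 12 in bone, 762 in brain, 10, 1 and 5 in T cells of bone, liver and lung, 690 for sort by tissue, 57 and 2 for NK cells, and 58 and 5 for CD8 T cells. Leaving out precursors, chosen after seeing the data like leaving out NK and T classes and the CD8 UMI gate, gave 590 in brain. Leaving out 1 sample gave 3 to 758 in brain, 0 to 61 in liver, 1280 to 2381 in lung, 64 to 292 for sort by tissue, 2 to 33 and 0 to 1 for NK cells, and 0 to 1 for CD8 T cells among tissues.

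Numbers did not pair all samples of lung (correlations from −0.0916 to 0.482), IIA bone (0.0778 to 0.562), NK and CD8 T cells among tissues, or sort by tissue; the block's calls there stand beside the results. In IIA bone the block ended the Gzmm call (0.051). IIA Gzma was at −3.30 (0.034), Gzmb at −1.83 and Prf1 at −1.66.

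Without the filter, Gzma was called in lung T cells (0.020) and for T cells by tissue (1.1e-10), Prf1 (0.00091) and Ifng (0.00020) in NK cells among tissues, Gzmb (0.00027) and Ifng (0.0066) in bone NK cells, Ifng (6.4e-10), Gzma (9.9e-11) and Gzmb (0.013) in CD8 T cells among tissues and Ifng (0.00015) in bone CD8 T cells, and IIA Gzmm was lost (0.096). The cause was not tested.

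Other signs turned, in log2 units, and the cause was not tested. In bone these were Gzmb −0.46 (block), Ifng 0.11 (Scrublet) and 0.20 (precursors out), Gzmk 0.30 (precursors out), Prf1 1.13 and Gzma 0.29 (NK and T out). In brain they were Nkg7 −0.0099 (no filter), −0.11 (NK and T out) and −0.0064 (precursors out), and Gzmb −0.10 (block). With NK and T out, liver Nkg7 was 0.82 and IIA Gzma −4.19. In T cells they were bone Nkg7 −0.094 and Gzmk −0.099 (no filter), Gzmk −0.49 (20 cells), and liver Nkg7 −0.98, Gzma −8.30 and Gzmk −0.62 (20 cells). For bone CD8 T cells they were Prf1 0.00057 and Gzma 0.089 (DESeq2), Prf1 0.065 (block), Gzma 0.045 (Scrublet), Fasl −0.011 and Gzmk −0.87 (20 cells), Fasl −0.065 (members kept), and Fasl −0.021, Nkg7 0.091 and Gzmk −0.87 (UMI gate).

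Leaving out 1 sample moved bone Fasl from −1.24 to 0.060, Prf1 −2.51 to 0.73, Ifng −2.09 to 0.81, Gzma −2.31 to 0.24 and Gzmb −1.83 to 0.69. In brain it moved Nkg7 from −0.25 to 0.40, Fasl −0.79 to 0.79, Ifng −0.59 to 0.77, Gzmk −1.04 to 1.25 and Gzmb −1.20 to 1.11, and in IIA Prf1 from −3.63 to 2.12, Gzma −5.66 to 1.28 and Gzmb −3.95 to 2.17. In T cells the ranges were bone Gzmk −0.94 to 1.46, Nkg7 −0.26 to 0.35, Prf1 −0.47 to 0.47 and Fasl −0.13 to 1.24, brain Prf1 −0.61 to 0.38, liver Gzmb −7.12 to 0.93, Nkg7 −0.98 to 1.40, Gzma −8.30 to 1.82 and Gzmk −0.62 to 1.71, and lung Prf1 −0.41 to 0.50 and Ifng −0.058 to 1.37. For bone CD8 T cells they were Nkg7 −0.37 to 0.26, Prf1 −0.26 to 0.47, Gzma −0.85 to 0.44, Gzmb −1.97 to 0.032, Fasl −0.42 to 1.65 and Gzmk −0.95 to 1.12. Thinned to 2000 UMIs, 71.3%, 36.9% and 22.5% of NK cells had Gzmb, Ifng and Fasl, and 13.1% of CD8 T cells Prf1. No test of NK cells between sorts was run; tagged samples held at most 14 NK cells.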
